A study of Rattus norvegicus with 2 samples.

Results

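Immature neurons extend axons by building and remodelling microtubules and actin at the growth cone, the motile tip of the axon. The genes described here mark that state: Sox4 and Sox11 encode transcription factors of the SoxC group, Dcx encodes doublecortin, a microtubule-associated protein of migrating young neurons, and Tubb3 and Tubb2b encode beta tubulins. Stmn1 and Stmn2 encode stathmins, which bind tubulin dimers and destabilise microtubules, Dpysl3 encodes a collapsin response mediator protein (CRMP) that takes part in axon guidance, and Gap43 and Marcks encode membrane-bound substrates of protein kinase C in growth cones and synapses. Several of these genes stay active in adult neurons, and Stmn1 and Marcks are also transcribed in other cell types of the brain.

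These 10 genes are listed by name and were looked up by gene symbol. Of the 22777 genes in the deposited mRNA table, 9 were members of the list. Sox4 was matched under neither its symbol nor an older one and was not analysed here. Hypothalamic RNA of female Sprague Dawley rats was compared between prepuberty (postnatal day 25) and puberty (postnatal day 35, in first estrus), and 3 rats per stage are given for the study. How the rats of a stage were combined is not stated, and with a single column of values for each stage there is no replicate check on any difference. In bulk tissue of this kind, fewer cells of a type and less RNA per cell cannot be told apart.

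Expression was given as FPKM, a count of sequenced fragments scaled for transcript length and library depth, which allows levels to be compared between genes. Low FPKM of genes with a single transcript were whole multiples of 1 step per library, within a tolerance of 0.02, for 92.2% of 1595 prepubertal and 90.7% of 1868 pubertal values. These steps correspond to 20700000 and 16160000 fragments, a prepubertal library 1.28 times as deep. The number of fragments behind each gene was derived from them. Differences are given as the log2 ratio, log2 of (pubertal FPKM + 1) over (prepubertal FPKM + 1) and are positive where the pubertal level was higher. Each gene's 95% interval (exact binomial) is for the log2 of the FPKM ratio without the added 1 and covers counting error only, not the spread between rats.

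With FPKM as deposited, none of the 9 genes differed by 1.5-fold between the stages. The count was 0 of 9 lower and 0 of 9 higher, against a background of 2.65% lower and 2.0% higher among the 14029 genes with at least 1 FPKM in 1 library. A count of 0 among 9 genes is near this background. With the libraries set to equal Actb (beta actin), 0 were lower and 2 higher, Stmn1 and Gap43, where 16.4% of all genes were 1.5-fold higher. The 9 genes had a median log2 ratio of -0.10, while the median over all 14029 genes was -0.01. With FPKM as deposited, 6 genes were lower and 3 higher at puberty, where 51.1% of all genes, and 34.4% of those with a mean of at least 100 FPKM, were lower. In the same values, 6 of the 9 log2 ratios were within 0.2 of 0. The differences that stood out within the list were those of Stmn2, 1.38-fold lower at puberty, and of Gap43 and Stmn1, 1.23-fold and 1.22-fold higher. These 3 directions held in each of the 7 other settings, while the 5 other genes turned from lower to higher with equal Actb. Sox11 stayed above 0 as well, with a counting interval that included 0. Some settings could not turn a direction: the smaller pseudocount, and the comparison table, whose FPKM were the same for these genes. For genes with a single transcript, taking the highest transcript changed nothing either.

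**Figure D1:**
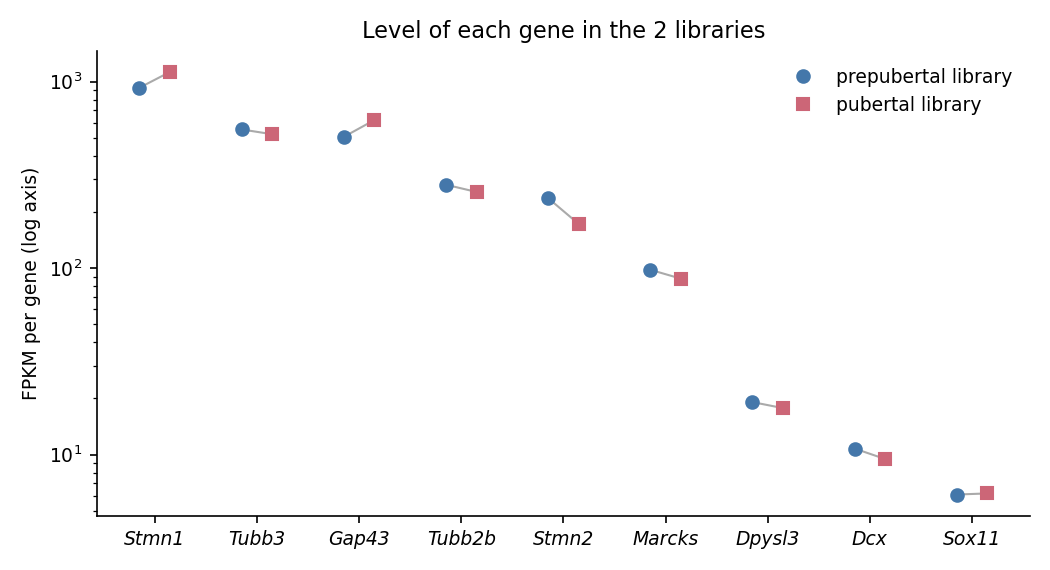
FPKM of each gene (log axis) in the prepubertal (circles) and the pubertal library (squares), 1 library per stage, so there are no error bars. Levels span from 6.11 FPKM for Sox11 to 1127 FPKM for Stmn1, and the 2 symbols of a gene lie close together compared with this span.

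**Figure D2:**
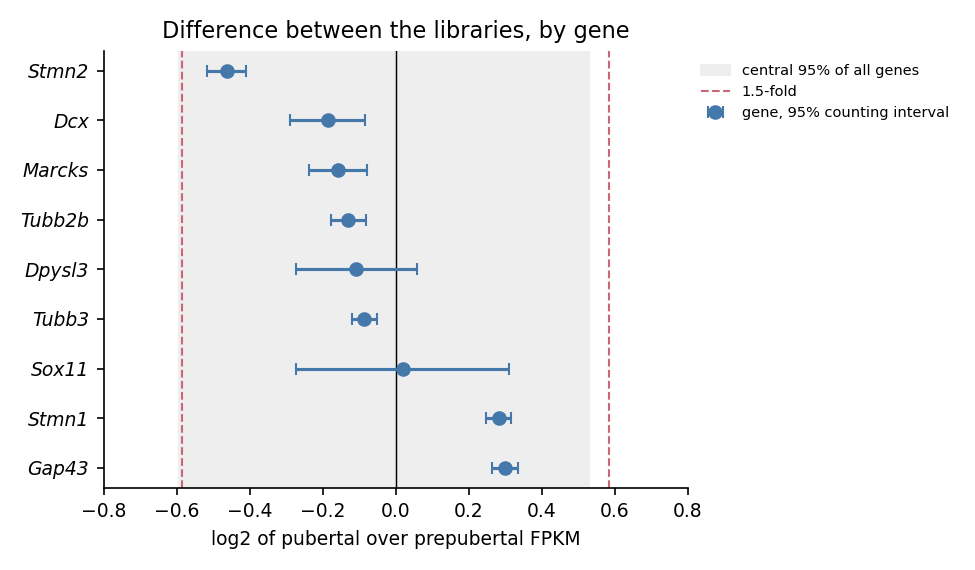
Log2 of the pubertal over the prepubertal FPKM of each gene, with its 95% counting interval, beside the central 95% of all genes with at least 1 FPKM (grey, on the FPKM + 1 scale) and the 1.5-fold lines (dashed). All 9 genes lie between the dashed lines, with Stmn2 the lowest and Gap43 the highest.

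The order of the levels was almost the same at both stages. Stmn1 was the highest of the 9 genes, at rank 94 of the 22777 genes before puberty and 85 at puberty, and Sox11 was the lowest, at ranks 9981 and 9818. Tubb3 and Gap43 exchanged the second and the third place, with a Gap43 level of 0.912 times that of Tubb3 before puberty and 1.19 times at puberty. The other places, held by Tubb2b, Stmn2, Marcks, Dpysl3 and Dcx from high to low, did not change. With 1 library per stage, no spread could be set beside the gaps between neighbours in this order.

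The promoters of these genes were looked at for the core letters bound by Sox proteins, since Sox11 is in the list. RefSeq promoter windows (build GRCr8) were at hand for 7 of the 10 genes, 8 windows in all, but not for Sox4, Stmn2 and Gap43. The 250 bases before each start site were searched for ACAAAG or ACAATG on either strand. A match was found in 4 of the 8 windows, those of Dcx, Tubb3, Stmn1 and Marcks, and in 25.3% of all 33469 windows. The log2 ratios of the 4 genes with a match were -0.17, -0.09, 0.28 and -0.16 as deposited, on both sides of 0, and all positive with equal Actb. The windows of Tubb3 (chr19:68365437-68365686, plus strand) and Stmn1 (chr5:151964929-151965178, plus strand) are shown as the 2 highest genes with a match, 1 lower and 1 higher at puberty as deposited. Each is written 5′ to 3′ with the matched letters in capitals.
Tubb3: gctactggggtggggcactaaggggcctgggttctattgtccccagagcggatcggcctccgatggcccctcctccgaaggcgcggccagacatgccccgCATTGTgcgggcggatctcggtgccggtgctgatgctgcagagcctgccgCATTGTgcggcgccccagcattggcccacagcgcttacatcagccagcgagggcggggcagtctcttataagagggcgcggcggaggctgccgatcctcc
Stmn1: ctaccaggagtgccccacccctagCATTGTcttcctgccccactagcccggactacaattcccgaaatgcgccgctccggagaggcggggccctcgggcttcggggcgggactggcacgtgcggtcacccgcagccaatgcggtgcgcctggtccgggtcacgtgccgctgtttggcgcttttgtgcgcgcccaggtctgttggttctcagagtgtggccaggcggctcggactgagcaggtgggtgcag
Tubb3 holds 2 matches, which start 150 and 100 bases before the start site, and Stmn1 holds 1, which starts 226 bases before it. A match of these letters is a description of the sequence and does not show that a Sox protein binds there.

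Among the transcription factors, Sox11 (ENSRNOG00000030034), which activates neuronal genes in newly formed neurons, was at 6.11 FPKM before puberty and at 6.19 FPKM in the pubertal library. Its log2 ratio was 0.02 (0.37 with equal Actb), and the interval, for FPKM as deposited, ran from -0.27 to 0.31. About 222 and 177 fragments lay behind these values, the fewest of the 9 genes, so a difference inside this interval was not detectable at this depth. Doublecortin was low as well. Dcx (ENSRNOG00000047712), on a transcript of 8827 nt, was at 10.8 FPKM before and 9.47 FPKM at puberty, with a log2 ratio of -0.17 (interval -0.29 to -0.08, 1911 and 1312 fragments). When all genes were split by transcript length into 10 classes, Dcx fell in the longest, whose median log2 ratio was -0.13. Relative to the median of that class, the log2 ratio of Dcx was -0.04. Without this centring, the ratio with equal Actb was 0.20, where the median of all genes was 0.36.

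The beta tubulins were abundant and differed little. Tubb3 (ENSRNOG00000017209), the neuronal beta tubulin recognised by the antibody TuJ1, was at 554 FPKM before puberty and 522 FPKM at puberty. Its log2 ratio was -0.09 (interval -0.12 to -0.05), on 16600 and 12263 fragments. Tubb2b (ENSRNOG00000017445), needed for neuronal migration in the cortex, was at 279.9 and 256 FPKM, a log2 ratio of -0.13 (interval -0.18 to -0.08). Both ratios were negative as deposited and positive, at 0.32 and 0.28, with equal Actb. The level of Tubb3 over that of Tubb2b, which no scaling of the libraries alters, was 1.98 before and 2.04 at puberty. Tubulin genes are close in sequence, and fragments can have been split between them, so the values of single tubulins are less certain.

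The stathmins of the list differed in opposite directions. Stmn1 (ENSRNOG00000016810) was at 927 FPKM before puberty and at 1127 FPKM in the pubertal library, summed over 4 transcripts, a log2 ratio of 0.28 (interval 0.25 to 0.32). Of the 14029 genes, 10.2% had a higher log2 ratio, and of the 1177 genes with a mean of at least 100 FPKM, 14.0% had. Stmn2 (ENSRNOG00000011705), also called SCG10, a neuronal stathmin of growing axons, was lower at puberty, at 172 FPKM against 237 FPKM before. Its log2 ratio was -0.46 (interval -0.52 to -0.41, 7811 and 4443 fragments), and 5.11% of the 14029 genes and 2.38% of the 1177 abundant genes had a lower one. The level of Stmn1 was 3.91 times that of Stmn2 before puberty and 6.54 times at puberty, a difference of 0.74 on the log2 scale that is free of the scaling between libraries. With equal Actb the log2 ratio of Stmn1 was 0.69, past 1.5-fold, and that of Stmn2 was -0.06.

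Within Stmn1, nearly the whole level came from 1 transcript. ENSRNOT00000076052, of 976 nt, held 97.8% of the summed FPKM before puberty and 97.9% at puberty, from 906 to 1104 FPKM. ENSRNOT00000022574, of 1054 nt, was the 1 transcript of the 4 that was lower at puberty, from 7.22 to 2.79 FPKM (log2 ratio -1.12). It rested on about 119 and 36 fragments and made up 0.779% and 0.247% of the gene. The FPKM of overlapping transcripts are estimates of how shared fragments divide, so the values of the minor transcripts are less certain than the sum.

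Of the growth cone proteins, Gap43 (ENSRNOG00000001528), a protein of growing and regenerating axons, was at 505 FPKM before puberty and 622 FPKM at puberty. Its log2 ratio was 0.30 (interval 0.26 to 0.34, 12806 and 12370 fragments), and 9.20% of all 14029 genes and 12.2% of the 1177 abundant genes had a higher one. With equal Actb it was 0.70, past 1.5-fold. Marcks (ENSRNOG00000000579), which binds actin and calmodulin at the plasma membrane, was at 97.9 and 87.8 FPKM, a log2 ratio of -0.16 (interval -0.24 to -0.08) that became 0.24 with equal Actb. The Gap43 level was 2.13 times that of Stmn2 before and 3.61 times at puberty. Dpysl3 (ENSRNOG00000018992), also known as CRMP4, was at 19.1 FPKM before puberty and 17.7 FPKM at puberty, a log2 ratio of -0.10 that was 0.28 with equal Actb. Its interval ran from -0.27 to 0.06 and included 0, as that of Sox11 did.

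**Figure D3:**
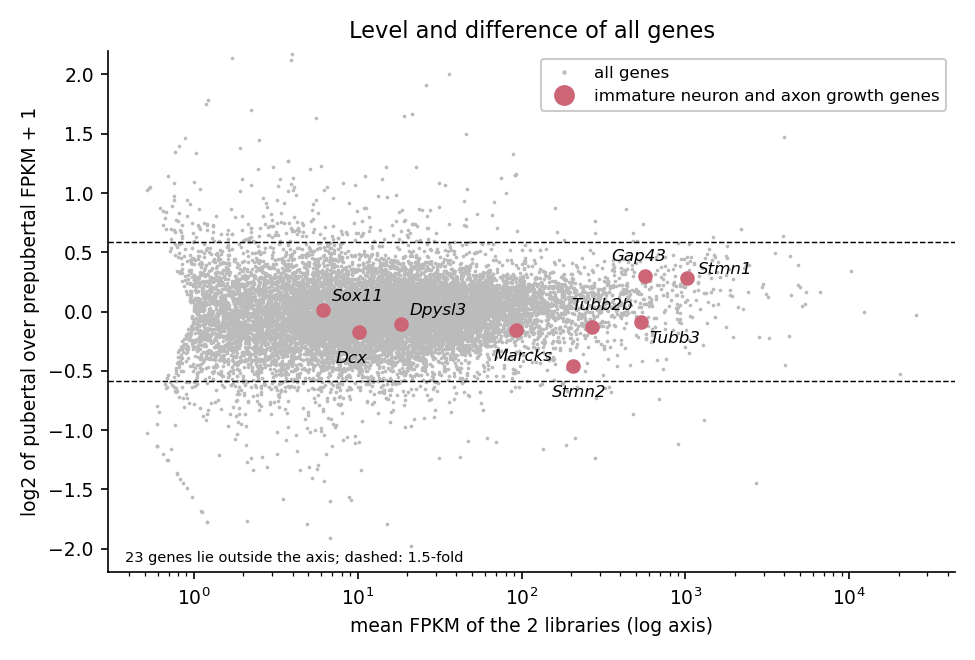
Log2 ratio of each gene with at least 1 FPKM in 1 library (grey points, 14029 genes) against its mean FPKM (log axis), with the 9 genes of the list in red and the 1.5-fold lines dashed, and 23 genes outside the axis. Stmn1, Gap43, Tubb3, Tubb2b and Stmn2 lie at more than 100 FPKM, where the cloud of genes sits above 0 with a median of 0.08.

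Over all genes, the median log2 ratio differed between classes of level and of transcript length. The median was -0.04 for the 5567 genes with a mean of 1 to under 10 FPKM and 0.08 for the 1177 genes of at least 100 FPKM. By transcript length it was 0.08 in the shortest class and -0.13 in the longest. Relative to genes of the same length class, Stmn1 was at 0.20, Gap43 at 0.25 and Stmn2 at -0.48, and relative to genes of the same class of level (10 classes), at 0.21, 0.22 and -0.54. Scaling to equal Actb, at 763 FPKM before and 576 FPKM at puberty, needed a factor of 1.32 on the pubertal library and moved the median of all genes to 0.36.

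**Figure D4:**
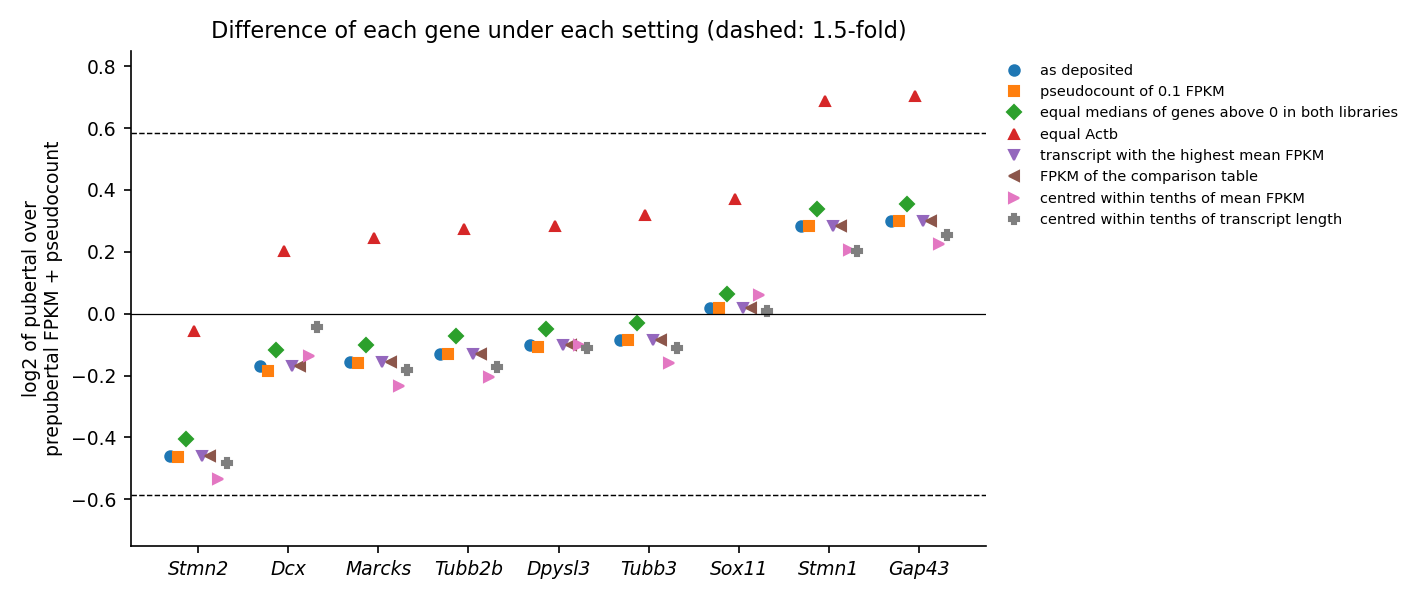
Log2 ratio of each gene as deposited and in 7 other settings, with the 1.5-fold lines dashed. Apart from equal Actb (red triangles), where 8 of the 9 genes lie above 0, the points of a gene stay on 1 side of 0.

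Relatives of the 9 genes were described with them, from lists by family or role. Of 64 relatives, 57 were found and 46 had at least 1 FPKM in 1 library. Of these 46, 2 were at least 1.5-fold lower at puberty (4.35%, against 2.65% of all genes) and 0 at least 1.5-fold higher (2.0% of all genes), with a median log2 ratio of -0.06. With equal Actb, 1 was lower and 6 were higher (Stmn3, Stmn4, St8sia4, Cntn2, Elavl3 and Nhlh2), in a setting in which 16.4% of all genes were 1.5-fold higher. With FPKM as deposited 32 of the 46 were lower and 14 higher, where 51.1% of all genes were lower. With equal medians the counts were 24 and 22, and with equal Actb 9 and 37. In these 2 scalings the median log2 ratio of all genes was itself 0.04 and 0.36. The family medians given below with equal Actb are to be read beside this 0.36.

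**Figure D5:**
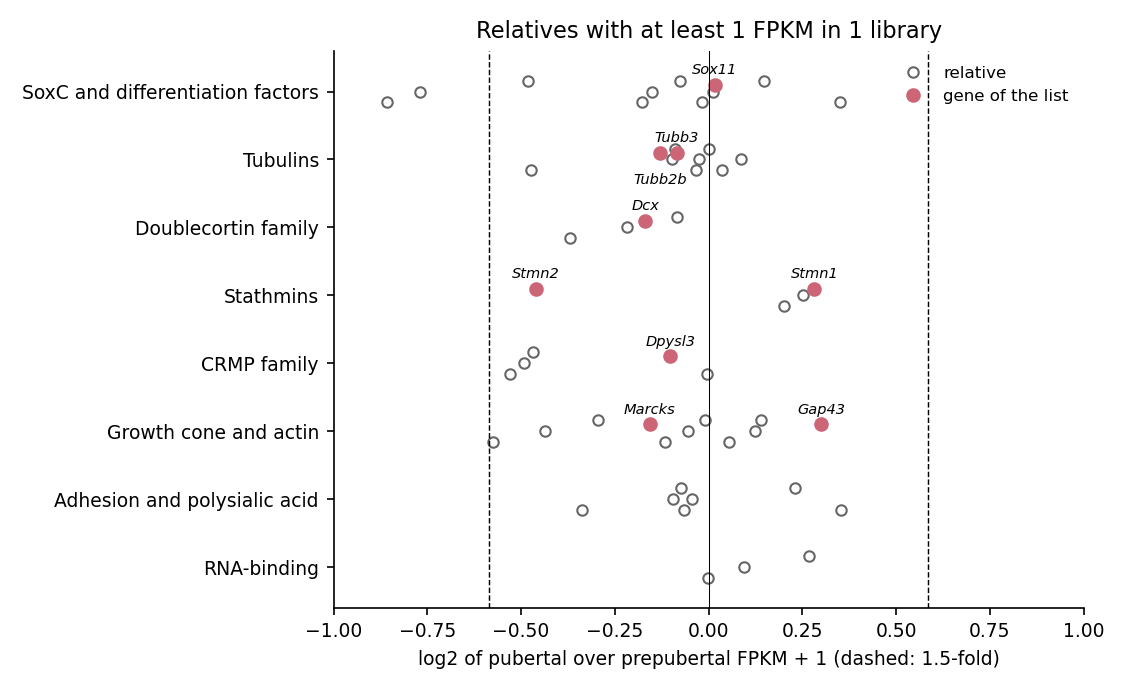
Log2 ratios of the relatives (open circles) with at least 1 FPKM in 1 library, by family or role, beside the genes of the list (red) and the 1.5-fold lines (dashed). Stmn2 lies apart from the other stathmins, and 2 differentiation factors, Neurod6 and Neurod1, with FPKM as deposited lie beyond the lower dashed line.

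The other stathmins sided with Stmn1. Stmn3 was at 705 and 839 FPKM (log2 ratio 0.25) and Stmn4 at 321 and 369 FPKM (0.20), both higher at puberty in each scaling, and past 1.5-fold with equal Actb (0.66 and 0.61), as were 16.4% of all genes. Stmn2 made up 10.8% of the FPKM summed over the 4 stathmins before puberty and 6.87% at puberty, while Stmn1 made up 42.3% and 45.0%, Stmn3 32.2% and 33.5%, and Stmn4 14.6% and 14.7%. These shares do not depend on how the libraries are scaled.

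Most of the other tubulins had log2 ratios near 0, and Tubb6 was the exception. Of 11 in the list, 10 were found and 8 had at least 1 FPKM, with 0 past 1.5-fold in either direction and a median of -0.03 (0.02 with equal medians of the libraries and 0.35 with equal Actb). Tuba1a, the major alpha tubulin of young neurons, was at 1396 and 1304 FPKM. Tuba4a was at 309 and 316 FPKM, Tubb2a at 937 and 881, Tubb4a at 259 and 259, Tubb4b at 601 and 638, and Tubb5 at 439 and 431. Tubb3 made up 18.0% of the FPKM of 8 beta tubulins before and 17.5% at puberty, and Tubb2b 9.10% and 8.56%. Tubb6, a low beta tubulin, was at 4.45 FPKM before puberty and 2.92 FPKM at puberty, a log2 ratio of -0.47 (interval -1.04 to -0.18) on about 138 and 71 fragments. Tuba1b was listed at 0 in both libraries, which does not show its absence, since fragments can have been assigned to other tubulins of similar sequence.

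In the CRMP family, Dpysl3 lay between Dpysl2 and the other members. Dpysl2, known as CRMP2 and the most abundant of the family, was at 486 FPKM before puberty and 484 FPKM at puberty (log2 ratio -0.01). Crmp1 was at 37.3 and 25.6 FPKM (-0.53) and Dpysl4 at 23.8 and 16.7 FPKM (-0.49), and with Dpysl5 the range of all 4 relatives was -0.53 to -0.01. The family median was -0.48, and -0.11 with equal Actb, with 0 of 4 past 1.5-fold. Dpysl3 made up 3.33% of the family's FPKM before and 3.23% at puberty.

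The doublecortin family holds kinases with the same microtubule-binding domain as Dcx. Dclk1 was at 51.3 and 39.5 FPKM (log2 ratio -0.37) and Dclk2 at 21.1 and 18.1 FPKM (-0.22). The median of the 3 kinases was -0.22, and 0.17 with equal Actb, with 0 past 1.5-fold. Dcx made up 12% of the FPKM of the family before puberty and 13% at puberty.

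Of the growth cone and actin genes, 9 of 12 were found, with 0 past 1.5-fold and a median of -0.06 (0.35 with equal Actb). Marcksl1, the relative of Marcks, was at 148 and 121 FPKM (-0.30). Marcks made up 39.8% of the FPKM of the pair before and 42.1% at puberty. There were 2 more entries of 600 nt under the symbol Marcksl1, at 9.92 and 10.02 FPKM before puberty and 4.56 and 4.69 FPKM at puberty, which can have shared fragments with it and are uncertain. Nrgn, neurogranin, a calmodulin-binding protein of mature forebrain neurons, was at 19.3 and 12.6 FPKM (-0.57), and Dbn1, the actin-binding protein drebrin, at 24.0 and 17.5 FPKM (-0.44). The membrane proteins Gpm6a (550.4 and 529.5 FPKM) and Gpm6b (256 and 266 FPKM) and the actin regulators Cfl1 (931 and 924 FPKM) and Pfn2 (238 and 219.7 FPKM) had log2 ratios from -0.12 to 0.05. The thymosins, which bind actin monomers, were at 1784 and 1966 FPKM for Tmsb10 (0.14) and at 3070 and 3348 FPKM for Tmsb4x (0.12).

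Adhesion genes of growing axons gave 7 of 8 found and 0 past 1.5-fold as deposited, with a median of -0.07. With equal Actb the median was 0.34, and St8sia4 (0.74) and Cntn2 (0.62) were past 1.5-fold. St8sia4, an enzyme that adds polysialic acid to Ncam1, was at 17.9 and 23.1 FPKM (0.35), and L1cam, an adhesion molecule of axon bundles, at 58.1 and 45.8 FPKM (-0.34). Cntn2 was at 15.4 and 18.2 FPKM (0.23). Ncam1 was at 97.1 and 92.7 FPKM, Chl1 at 71.4 and 66.8, Nrcam at 93.6 and 88.9 and Cd24 at 19.8 and 19.2, with log2 ratios from -0.09 to -0.04. Among the RNA-binding proteins, 3 of 6 had at least 1 FPKM, none of them past 1.5-fold as deposited, with a median of 0.10. With equal Actb the median was 0.49, and Elavl3 (0.67) was past 1.5-fold. Elavl2 was at 56.2 and 60.1 FPKM, Elavl3 at 49.4 and 59.6 and Elavl4 at 31.9 and 31.8, which are neuronal ELAV proteins. Igf2bp1, an RNA-binding protein of the fetal brain, was listed at 0 in both libraries.

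The differentiation factors held the 2 relatives past 1.5-fold as deposited, of which Neurod1 alone (-0.64) stayed past it with equal Actb. Of 18 in the list, 16 were found and 10 had at least 1 FPKM. Neurod6, a factor of glutamatergic neurons of the telencephalon, was at 5.08 FPKM before puberty and 2.36 FPKM at puberty (log2 ratio -0.86, and -0.56 with equal Actb), on about 178 and 65 fragments. Neurod1 was at 1.43 and 0.429 FPKM (-0.77), on about 47 and 11 fragments. Hes6 was at 24.2 and 21.6 FPKM (-0.15) and Myt1l, which represses non-neuronal genes in neurons, at 25.1 and 22.1 FPKM (-0.18). The median of the 10 factors was -0.11, and 0.26 with equal Actb, where Nhlh2 (0.35 as deposited, on about 10 and 11 fragments) was at 0.69. Sox12, the remaining SoxC gene, was at 2.73 and 2.76 FPKM, on about 39 and 31 fragments, with an interval of -0.71 to 0.73.

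Markers of other regions and cell types differed beside these values, and their part in them was not tested. The hypothalamic peptides Avp, Oxt, Hcrt, Pmch, Pomc, Agrp and Trh were at 21.4 to 2723 FPKM and the transcription factors Nkx2-1, Otp, Sim1, Nr5a1 and Rax at 0.41 to 2.67 FPKM. As deposited, the 10 of these 12 markers with at least 1 FPKM had a median log2 ratio of 0.29, with 3 lower (Avp, Nkx2-1 and Otp) and 7 higher at puberty, 2 of them, Oxt (411 and 686 FPKM) and Pmch (1675 and 2723 FPKM), by at least 1.5-fold. The list summed to 2664 and 4061 FPKM, most of it Pmch. With equal Actb the median of these 10 markers was 0.67 (0.36 over all genes), with 6 of the 10 at least 1.5-fold higher. Of all genes, 2.0% were 1.5-fold higher as deposited and 16.4% with equal Actb. Markers of telencephalon and thalamus, Neurod6 among them, summed to 41.1 FPKM before puberty and 24.9 FPKM at puberty, and all 5 of at least 1 FPKM were lower in each scaling, 3 by 1.5-fold as deposited and 0 with equal Actb, with a median of -0.63 (-0.28 with equal Actb). Markers of mature neurons had a median of -0.19 (2624 and 2418 FPKM summed, 1 of 11 past 1.5-fold, Syp at -0.64), and those of dividing cells -0.42 (61.9 and 66.4 FPKM, 1 of 5, Top2a at -0.62, all low but Pcna). As deposited, the medians were -0.23 for neural progenitors and progenitor-like glia (143 and 126 FPKM), -0.17 for oligodendrocyte progenitors and newly formed oligodendrocytes (319 and 297 FPKM), -0.06 for myelinating oligodendrocytes (11834 and 12826 FPKM), -0.12 for astrocytes (1228 and 1072 FPKM), 0.20 for microglia (205 and 249.9 FPKM) and -0.11 for endothelium (106 and 98.1 FPKM). No marker of these lists was at 0 in both libraries. With equal Actb, the negative medians of mature neurons, progenitors, both oligodendrocyte lists, astrocytes and endothelium were positive, from 0.12 to 0.35, while the median of microglia was 0.59 and that of dividing cells -0.16. Apart from the hypothalamic list, 0 markers were 1.5-fold higher as deposited, and 8 of 58 were with equal Actb, beside 16.4% of all genes. Like Syp and Top2a, the markers Gpr17 of newly formed oligodendrocytes (-0.83), Gja1 of astrocytes (-0.67) and Kdr of endothelium (-0.59) were 1.5-fold lower as deposited, while with equal Actb 0 of the 58 were.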

How the data were processed

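Hypothalamic RNA of prepubertal and pubertal rats was depleted of ribosomal RNA and made into strand-specific libraries, which the authors sequenced as paired ends, aligned with TopHat and assembled with Scripture and Cufflinks 2.1.1. The authors computed the deposited FPKM with Cuffdiff 2.1.1, scaled for depth and transcript length. The submitters' processing notes name the build Rnor_5.0. The authors' fold changes, p-values and q-values in the comparison table were not used, nor were the lncRNA sequences.

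FPKM of the mRNA table were summed per gene over its transcripts, and a symbol with several entries was taken as the one with the highest mean. No scaling was added. Log2 ratios were computed with a pseudocount of 1 FPKM. With 1 library per stage no test was made, and a change of 1.5-fold in FPKM + 1 was counted, over genes with at least 1 FPKM in 1 library. Depth was derived from FPKM above 0 of transcripts of 600 to 4000 nt, the single ones of their gene, in the mRNA and lncRNA tables. Values of up to 6 fragments were used, with a fitted mean fragment length of 257 nt (prepubertal) and 251 nt (pubertal). The derivation was tested on simulated data, over a narrower range of depths and fragment lengths than was searched in the real data. The members and all lists were chosen with earlier results of these data known. All members were named, and relatives where they had at least 10 FPKM in 1 library or were past 1.5-fold, while Sox12, Nhlh2, Tubb6, Dpysl5, Tuba1b and Igf2bp1 were named after their values were seen. No likeness of pattern was computed over 2 libraries. Alternatives were a pseudocount of 0.1, equal medians, equal Actb, the transcript with the highest mean, the FPKM of the comparison table, a fold of 2, all listed genes as background, and centring within 10 classes of level or length. Scripts ran in Python 3.11.15 with scipy 1.17.1, pandas 2.3.3 and numpy 2.4.6, and plots were drawn with matplotlib 3.10.9.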

Additional observations from a re-analysis of the deposited data

How the results depend on the processing

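The count of members at least 1.5-fold lower at puberty was 0 in each setting in which it was computed, and that of members at least 1.5-fold higher was 0 in each but equal Actb, where it was 2 (Stmn1 and Gap43). The median log2 ratio of the 9 genes, -0.10 as deposited, was 0.28 with equal Actb and ranged from -0.14 to -0.05 in the other settings. Equal Actb also moved the median of all genes, to 0.36, which was above that of the list. Of all genes, 372 were lower and 281 higher as deposited, 650 and 452 with a pseudocount of 0.1, 122 and 2344 with equal Actb, and 85 and 70 at a fold of 2. By equal medians, with a factor of 1.04 on the pubertal library, they were 309 and 339. In all 8 settings 4 of the 9 genes kept their direction, and without equal Actb all 9 did. The smaller pseudocount, or the comparison table with the same FPKM for these genes, could not turn a direction. The FPKM of 13 mRNA transcripts differed between the tables, 0 of them of the 9 genes. No paired analysis was possible because each stage has 1 column and no test was made. The depth limits Sox11 most, with 222 and 177 fragments, and the spread between rats could not be assessed for any gene.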
